A study of Mus musculus with 2 samples.

Results

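The 1798 peaks described here are the autosomal peaks of an ELAVL2 RNA immunoprecipitation listed as overlapping the bodies of at least 2 genes. They were taken from the authors' table of peaks and genes after repeated lines were dropped: a peak was kept if at least 2 different gene identifiers were listed for it with a location other than upstream or downstream of the gene. They were 6.77% of the 26573 autosomal peaks of that table (exact Clopper-Pearson 95% interval 6.47 to 7.07) and 8.93% of the 20131 that overlapped any gene, out of 28332 peaks called in all. With genes of an approved, not clone-like symbol alone they would be 2.82% of the autosomal peaks, and with 1 peak per set of genes 2.72%. No measured signal chose them, since the rule uses gene positions only. The study precipitated ELAVL2 from a homogenate of 100 newborn (P0) mouse ovaries with 5 µg of antibody and 6 hours of incubation, and set the RNA that came down against input RNA, which was 5% of the cleared lysate. Each group, ELAVL2 RIP and input RNA, has 1 sample. Both came from whole ovaries, with no other treatment and no genotype or strain given. Neither a pulldown with another antibody nor an ELAVL2-deficient ovary is among the samples, so RNA bound to ELAVL2 and RNA retained in another way cannot be told apart.

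ELAVL2 belongs to the ELAVL (Hu) family of RNA-binding proteins, which bind U-rich and AU-rich stretches, many of them near the 3′ ends of messenger RNAs, and affect the stability and translation of those RNAs. In the newborn ovary oocytes are being enclosed in primordial follicles, and their stored messenger RNAs are controlled by proteins of this kind. Where genes overlap on the genome, a read can come from either transcript. Genes on opposite strands may run toward each other and share their 3′ ends (convergent), start from a shared stretch and run apart (divergent), or lie 1 inside the other (nested). Genes on the same strand may overlap end to end or be nested.

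The libraries were made with a kit that keeps the strand, but the peak list gives none, so no peak here could be assigned to 1 of its genes by strand. Peaks were called on 13787676 RIP tags and 19479946 input tags, 7.98% and 9.26% of the aligned tags of 3 pooled RIP lanes and 3 pooled input lanes. With 1 sample a group, no value has a replicate check and no p-value is given. Intervals cover counting error only. For each peak the fold enrichment, the pileup (overlapping RIP tags at the summit) and the −log10 q are the authors' own values, and the input level is the scaled local input that pileup and fold imply. Peaks overlapped 4 of 10 oocyte marker genes, 2 of 8 granulosa, 1 of 5 stromal, 1 of 3 endothelial, 0 of 3 erythroid and 0 of 3 immune markers. Maf, in the stromal list, was the only marker with a multi-gene peak. The lists are short and no share over all genes was taken, so they do not rank cell types.

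The reference sequences at hand are promoter windows and microRNA hairpins, and 6 multi-gene peaks of the 45 peaks that lay wholly inside such a window or hairpin could be read. The 5 shown here hold every layout except the same-strand end-to-end one. Letters are from RefSeq GRCm38.p6, the same assembly as mm10, 5′ to 3′ on the strand of the gene whose window holds the peak, with the 11 bases around the summit in capitals. That gene is Gm13748, Mir719 and 2900089D17Rik for the first 3 sequences, and a further RefSeq gene, Gm34872 and Gm39325, for the last 2. Those last 2 are on the strand of Gm5577, opposite to Rab7, and on the strand of Rnf26, opposite to Usp2. For pairs on opposite strands, a transcript of the other partner would carry the reverse complement of the letters shown.
Klf7 and Gm13748: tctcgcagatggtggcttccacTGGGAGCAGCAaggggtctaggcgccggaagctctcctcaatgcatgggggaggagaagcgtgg
Nupl1 and Mir719: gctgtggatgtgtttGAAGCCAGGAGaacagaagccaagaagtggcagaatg
2900089D17Rik and Bri3: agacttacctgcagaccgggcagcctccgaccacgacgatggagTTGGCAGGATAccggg
Gm5577 and Rab7: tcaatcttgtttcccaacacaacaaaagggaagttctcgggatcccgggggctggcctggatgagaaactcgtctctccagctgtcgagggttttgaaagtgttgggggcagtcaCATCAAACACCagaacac
Rnf26 and Usp2: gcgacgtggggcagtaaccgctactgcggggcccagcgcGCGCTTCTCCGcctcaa

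The first lies at chr1:64079166-64079251 (+ strand), where Gm13748 is nested in Klf7, a Krüppel-like transcription factor gene on the other strand, and had a pileup of 28 and a fold of 2.35. The second, at chr14:60228811-60228862 (− strand), is part of the hairpin of Mir719, nested on the same strand in the nucleoporin gene Nupl1, with a pileup of 28 and a fold of 3.30. The third, at chr5:144255861-144255920 (− strand), lies at the start of 2900089D17Rik and 5.65% into the table's body of Bri3, a divergent pair, with a pileup of 53 and a fold of 2.22. The fourth, at chr6:88005009-88005141 (+ strand), lies in the shared ends of Gm5577 and Rab7, the late endosomal GTPase gene, with a pileup of 41 and a fold of 2.02. The last, at chr9:44085007-44085062 (− strand), lies where Usp2, a deubiquitinase gene, is nested in the table's body of Rnf26, and had a pileup of 22 and a fold of 4.38. None of the 6 multi-gene peaks readable here held TTTTT on either strand, and 6 of the 39 other readable peaks did (15.4%). ATTTA was in 0 of the 6 and in 3 of the 39 (7.69%). The T and A content of the 5 printed strands ran from 13.3% to 21.8% T and from 14.3% to 32.7% A. These windows are transcription starts and a hairpin, so they leave the letters of most peaks at 3′ ends unread.

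Of the 1798 peaks, 1709 overlapped exactly 2 genes, 76 overlapped 3, 7 overlapped 4 and 6 overlapped 14. Most peaks joined genes on opposite strands: 1276 peaks (71.0%, 68.8 to 73.1) had 2 genes on opposite strands, 440 (24.5%, 22.5 to 26.5) had genes of 1 strand, and 82 had 3 or more genes on mixed strands. Among the opposite-strand peaks 714 were convergent (56.0%, 53.2 to 58.7), 525 nested and 37 divergent. Among the same-strand peaks 221 were end to end, 212 nested and 7 of several layouts. Counted over all strands, 765 peaks (42.5%, 40.2 to 44.9) lay in nested genes only. At the peaks of exactly 2 genes there were 649 different gene pairs, of which 238 were convergent, 25 divergent, 218 nested on opposite strands, 72 end to end and 96 nested on the same strand. With the pairs at peaks of 3 or more genes added, there were 848 pairs: 261 convergent, 30 divergent, 271 nested on opposite strands, 105 end to end and 181 nested on the same strand. Of the 1798 peaks, 1727 were wholly inside at least 2 gene bodies. The plot of peaks and pairs by layout shows that convergent genes gave the most peaks.

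**Figure D1:**
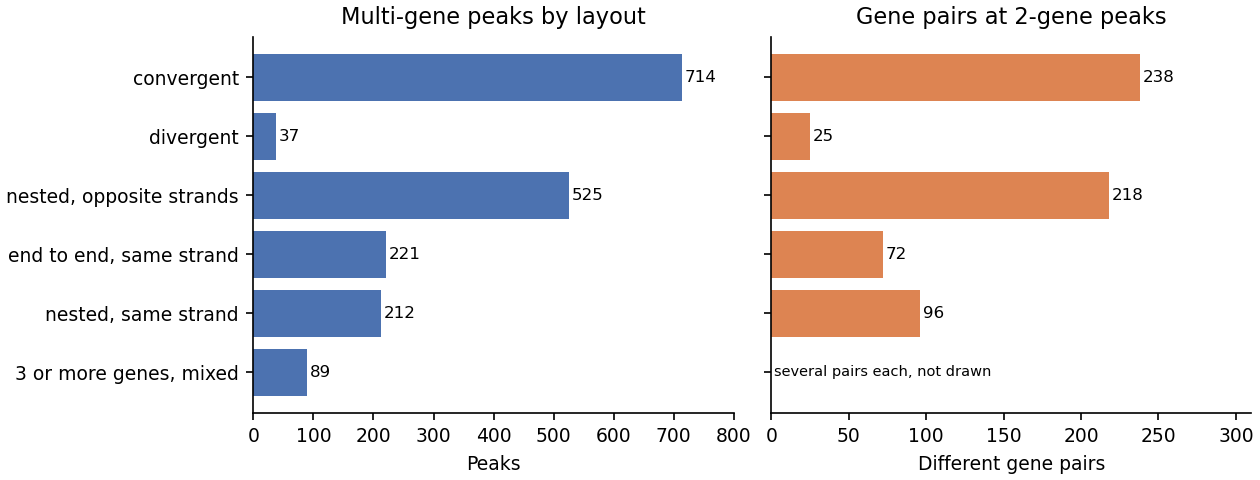
Multi-gene peaks (left, number of peaks) and the different gene pairs at peaks of exactly 2 genes (right, number of pairs) by layout. Convergent genes held 714 peaks in 238 pairs and opposite-strand nested genes 525 peaks in 218 pairs; the 89 peaks with 3 or more genes have a bar of their own on the left and are not in the right panel.

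The genes at these peaks numbered 1321, which was 22.5% of the 5860 autosomal genes that any peak overlapped. By RefSeq, to which 1073 of them could be matched by symbol, 863 were protein-coding, 138 long noncoding, 65 pseudogenes and 7 small RNAs. A total of 474 had a clone-like name or no symbol. Both partners were protein-coding in 307 of the 848 pairs, and 752 peaks held such a pair. That share differed by layout: 138 of 261 convergent pairs (52.9%), 69 of 181 same-strand nested pairs (38.1%), 39 of 105 end-to-end pairs (37.1%), 8 of 30 divergent pairs (26.7%) and 53 of 271 opposite-strand nested pairs (19.6%). A protein-coding gene was joined to one without a RefSeq match in 56 of 105 end-to-end pairs (53.3%), 120 of 271 opposite-strand nested pairs (44.3%), 62 of 181 same-strand nested pairs (34.3%), 7 of 30 divergent pairs (23.3%) and 54 of 261 convergent pairs (20.7%). In 22 pairs a partner carried an opposite-strand (os) name, such as Arhgap20os or Chn1os3.

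Multi-gene peaks had taller pileups over a higher input, and lower folds. Their median pileup was 31, against 27 at the 18333 peaks that overlapped exactly 1 gene and 24 at all autosomal peaks. Their median input level was 9.91, against 7.79 at the 1-gene peaks and 5.66 at all autosomal peaks. The median fold was 2.997 (95% interval 2.92 to 3.09, quartiles 2.33 and 4.14) at multi-gene peaks, 3.29 at 1-gene peaks and 3.58 at all autosomal peaks, and single multi-gene peaks ran from 1.62 to 14.1. A fold of at least 5 was reached by 271 multi-gene peaks (15.1%, 13.4 to 16.8), against 20.7% of 1-gene peaks and 26.1% of all autosomal peaks. The multi-gene share thus lay below both backgrounds. Under other counting both shares moved: the multi-gene share was 24.8% (21.6 to 28.2) with 1 peak per set of genes, against 35.9% with 1 peak per gene at 1-gene peaks, and 26.0% without the pseudocount of the fold, against 33.9% of 1-gene peaks. At a pileup of at least 20 it was 5.24% (4.10 to 6.58), against 6.01% of 1-gene peaks, and with RefSeq bodies 20.2% (18.3 to 22.2), against 21.2%. In these last 2 settings the 1-gene share lay inside the interval of the multi-gene share, so a difference was not detectable there. The median fold was also taken within 5 bins of input level. That level is itself computed from pileup and fold, so the bins are not independent of the fold. In the bin of lowest input the median fold was 5.62 at 257 multi-gene peaks and 5.80 at 3779 1-gene peaks. In the second bin it was 4.20 at multi-gene peaks and 4.36 at 1-gene peaks. In the middle bin it was 3.23 at multi-gene peaks and 3.26 at 1-gene peaks, and in the fourth 2.61 at multi-gene peaks and 2.60 at 1-gene peaks. In the highest it was 2.092 at multi-gene peaks and 2.097 at 1-gene peaks. The filling of the bins differed too: 25.5% of multi-gene peaks and 19.3% of 1-gene peaks were in the highest bin. The lowest bin held 14.3% of multi-gene peaks and 20.6% of 1-gene peaks. The part of input level in the difference of fold was not tested. The plot of fold by input level shows both kinds of peak side by side.

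**Figure D2:**
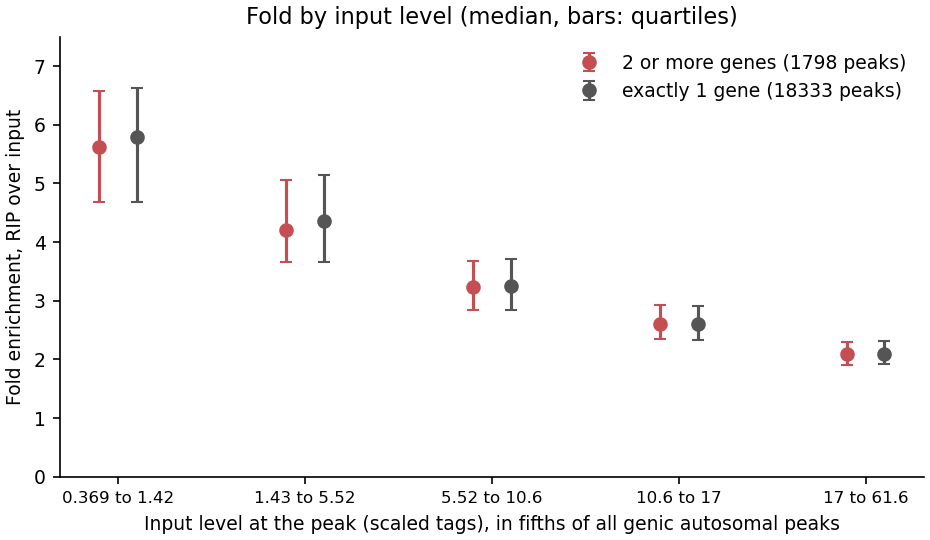
Median fold enrichment of RIP over input (points, bars are quartiles) against the input level in 5 bins, for 1798 multi-gene peaks (red) and 18333 1-gene peaks (grey). In every bin the quartiles of the kinds overlap, and the medians fall with input from 5.62 to 2.092 at multi-gene peaks and from 5.80 to 2.097 at 1-gene peaks.

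The layouts differed in fold and input together. Among the 5 layouts of 2-gene peaks, convergent peaks had the lowest median fold, 2.69, at the highest median input level, 12.0, and 45 of the 714 (6.30%, 4.63 to 8.34) reached a fold of 5. Divergent peaks had a median fold of 3.65 at an input level of 4.95, and 12 of 37 (32.4%, 18.01 to 49.79) reached 5. Opposite-strand nested peaks had a median fold of 3.24 at an input level of 7.79, with 121 of 525 (23.0%, 19.5 to 26.9) at 5 or more. Same-strand nested peaks had a median fold of 3.50 at an input level of 5.66, with 39 of 212 (18.4%) at 5 or more. End-to-end peaks had a median fold of 3.07 at an input level of 9.20, with 38 of 221 (17.2%) at 5 or more. The part of input level in these differences was not tested.

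To set the layouts against the genome, RefSeq genes with a known strand outside chromosome 18 (26728 of 45717 genes, 58.5%) were laid out in the same way and peak summits were counted per megabase (Mb) of overlap. Stretches covered by at least 2 such genes were 4.14% of the genic sequence and held 5.43% of the genic summits, 24.5 per Mb (23.0 to 26.1), against 18.5 per Mb (18.2 to 18.7) in sequence of exactly 1 gene. Convergent overlaps held 517 summits in 5.95 Mb, or 86.9 per Mb (79.6 to 94.7). End-to-end overlaps held 97.2 per Mb (66.5 to 137) from 32 summits. Same-strand nested overlaps held 17.6 per Mb, opposite-strand nested overlaps 11.4 per Mb (10.0 to 12.9) and divergent overlaps 7.39 per Mb (5.05 to 10.4). A summit fell in 167 of 1011 convergent overlaps (16.5%), 13 of 130 end-to-end (10.0%), 112 of 2193 opposite-strand nested (5.11%), 37 of 1048 same-strand nested (3.53%) and 25 of 1348 divergent overlaps (1.85%).

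Of the 5.95 Mb of convergent overlap 3.66 Mb lay within 5000 bp of a 3′ end, and the same densities were also taken in the sequence this close to a 3′ end, a distance chosen after the first densities were seen. There the densities were 123 per Mb (112 to 134) in convergent overlaps and 90.9 per Mb (89.0 to 92.8) in sequence of exactly 1 gene. End-to-end overlaps had 199 per Mb (136 to 281), same-strand nested 41.7, opposite-strand nested 20.2 (17.2 to 23.5) and divergent 10.4 (4.17 to 21.4). Convergent overlaps and 1-gene sequence thus lay closer together near 3′ ends than over whole bodies, while nested and divergent overlaps lay below 1-gene sequence there, as the plot of summit density shows. Within 5000 bp of a 5′ end the gap was wider than over whole bodies: convergent overlaps had 131 per Mb (102 to 165) from 70 summits, and 1-gene sequence had 15.7 per Mb (14.9 to 16.5). End-to-end overlaps had 121 per Mb (73.9 to 187) from 20 summits near a 5′ end, and divergent overlaps had 9.89 (6.62 to 14.2) from 29. In an overlap the same base can be near a 5′ end and near a 3′ end, and it was then counted in both. All 32 end-to-end summits and 449 of the 517 convergent summits were within 5000 bp of a 3′ end. The densities near 5′ ends are thus not separate from those near 3′ ends.

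**Figure D3:**
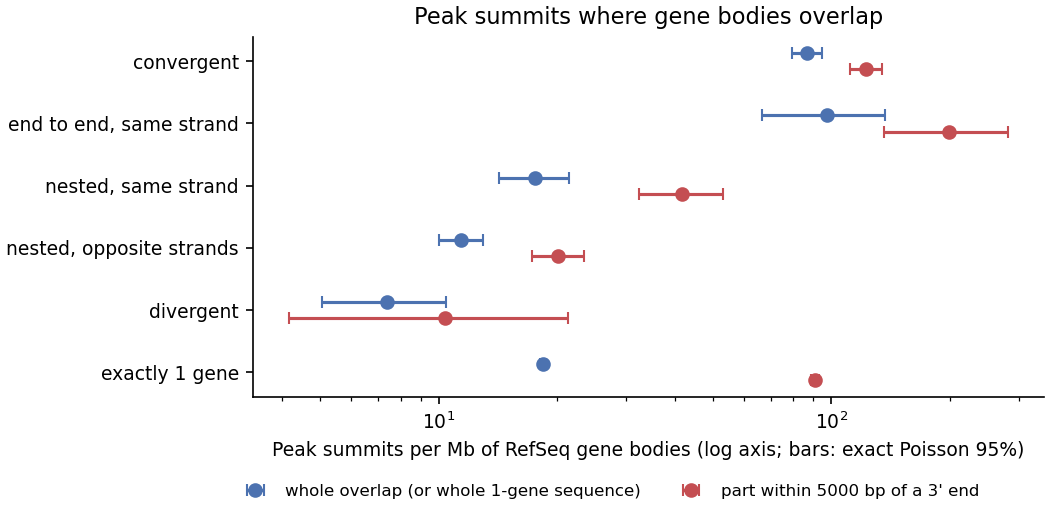
Peak summits per Mb (log axis, bars are exact Poisson 95% intervals) in overlaps of RefSeq gene bodies by layout and, in the lowest row, in sequence of exactly 1 gene, over the whole stretch (blue) and within 5000 bp of a 3′ end (red). Over whole stretches convergent overlaps had 86.9 per Mb and 1-gene sequence 18.5, and near 3′ ends they had 123 and 90.9.

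Within gene bodies, 1119 multi-gene peaks (62.2%, 59.9 to 64.5) peaked within the last 10% of at least 1 of their genes, against 8546 of the 1-gene peaks (46.6%, 45.9 to 47.3). A peak with more genes has more chances to meet an end, and for convergent genes the layout itself puts the overlap at 3′ ends, so the pooled shares are a description. By layout the share was 86.3% of convergent peaks, 66.5% of end-to-end peaks, 41.1% of opposite-strand nested peaks, 40.1% of same-strand nested peaks and 0 of 37 divergent peaks (exact interval up to 9.49%). For 254 multi-gene peaks the summit was in the last 10% of at least 2 bodies, and 195 of these were convergent. The first 10% of a body held the summit of 215 multi-gene peaks (12.0%), against 851 1-gene peaks (4.64%).

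The 714 convergent peaks fell in 238 pairs whose bodies overlapped by a median of 4258.5 bp (71 to 152403 bp). Per peak, a mean of 80.9% of the overlap lay in the last 10% of a partner, beside the 86.3% of summits found there. The summit was a median of 637.5 bp from the nearer 3′ end and 5200.5 bp from the farther one, and 437 summits (61.2%) were within 1000 bp of an end. For 360 peaks in 109 of these pairs, exactly 1 partner also had peaks of its own outside the overlap. The summit was in the last 10% of that partner at 288 of these (80.0%, 75.5 to 84.0) and in the last 10% of the partner without own peaks at 148 (41.1%, 36.0 to 46.4). The median distance to the 3′ end was 1251 bp for the partner with own peaks and 2415 bp for the other. The partner with own peaks also had the longer body, with a median of 64970 bp against 23487 bp, which makes its last 10% longer. The part of body length in this difference was not tested.

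**Figure D4:**
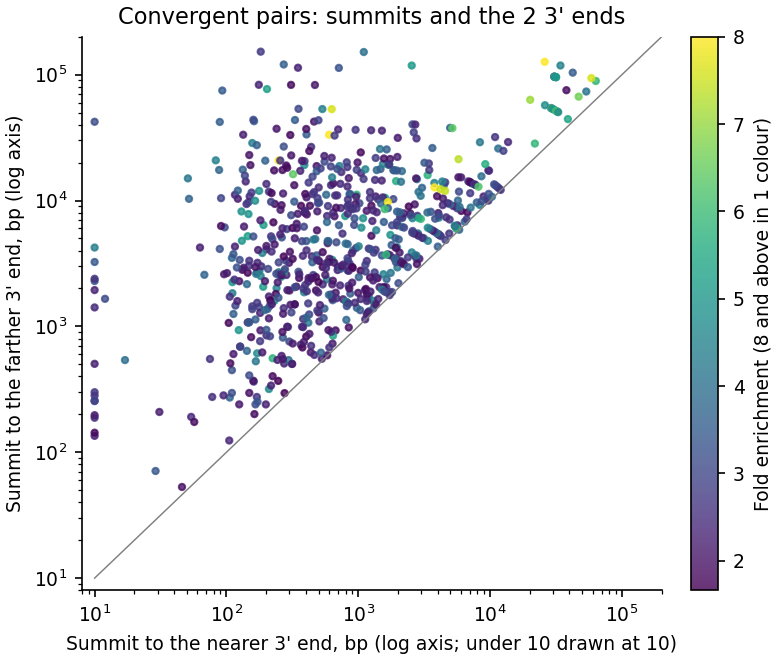
Distance from the summit of each of the 714 convergent peaks to the nearer 3′ end (x axis, bp) and to the farther 3′ end (y axis, bp), both on log axes, coloured by fold. The 16 summits under 10 bp from an end, or past it, are drawn at 10; the medians are 637.5 bp for the nearer and 5200.5 bp for the farther end.

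Among convergent pairs of named genes, the top fold among peaks with 20 or more overlapping RIP tags was in Arhgap20, which encodes a GTPase-activating protein, and its noncoding partner Arhgap20os, at chr9:51832920-51833236. There the RIP pileup was 24 and the input level 2.12, a fold of 8.004. Their 10 shared peaks had folds from 1.81 to 8.004 (median 3.38), all inside the RefSeq body of Arhgap20 and 7 of them inside that of Arhgap20os. Plcg1, the gene of phospholipase C gamma 1, and Zhx3, a zinc finger and homeobox gene, shared 3 peaks with RIP pileups of 38, 37 and 26 over input levels of 13.4, 14.9 and 2.68. Their folds were 2.70, 2.40 and 7.35, so 1 peak stood well above the other 2, and it was the one with little input. All 3 were inside RefSeq Plcg1 and none inside RefSeq Zhx3. Vwa7, a von Willebrand factor A domain gene, and Sapcd1 shared 3 peaks with RIP pileups of 14, 25 and 34 over input levels of 3.04, 3.54 and 6.37, and folds of 3.71, 5.73 and 4.75. All 3 were within 639 bp of the end of Vwa7 and within 611 bp of the end of Sapcd1. Chn1, the gene of the Rac GTPase-activating protein chimaerin 1, and Chn1os3 shared 9 peaks with folds from 1.90 to 5.29, all in the last 10% of Chn1 and none in that of Chn1os3.

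Rad9b, a paralogue of the checkpoint clamp gene Rad9, and Pptc7, a mitochondrial phosphatase gene, shared the convergent peak with the largest −log10 q among named pairs, 15.3, at chr5:122324047-122324177. Their 3 peaks had RIP pileups of 50, 62 and 50 over input levels of 15.6, 29.7 and 9.20, with folds of 3.08, 2.05 and 5.00. All 3 lay in the last 10% of both genes, and Rad9b had 2 further peaks of its own while Pptc7 had none. Oprm1, the mu opioid receptor gene, and Ipcef1, whose product binds cytohesins, shared 6 peaks over 93729 bp, with folds of 2.75, 4.00, 10.3, 4.48, 5.86 and 7.61. The first of these was 182 bp from the 3′ end of Ipcef1, and the strongest, at chr10:6911635-6911748 with a RIP pileup of 17 over an input level of 0.743, was 25935 bp from that end and 126467 bp from the end of Oprm1. Strbp, a gene for a double-stranded RNA-binding protein, and Rabgap1, a Rab GTPase-activating protein gene, shared 14 peaks with folds from 1.84 to 7.04. All 14 were inside RefSeq Rabgap1 and none inside RefSeq Strbp, although Strbp had 21 peaks of its own and Rabgap1 had 4.

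The pair with the most shared peaks was Abhd15, an alpha/beta-hydrolase gene, and Taok1, which encodes a STE20-family kinase of stress signalling. Their 19 peaks lay between 77529225 and 77537932 on chromosome 11, with RIP pileups from 25 to 57 (median 37), input levels from 7.43 to 28.3 (median 11.3) and folds from 1.79 to 4.63 (median 2.64). The 2 peaks nearest the 3′ end of Taok1 were among the lowest, with RIP pileups of 57 and 49 over input levels of 28.3 and 26.9 and folds of 1.98 and 1.79. The highest, at chr11:77535201-77535278 with a RIP pileup of 38 over an input level of 7.43, was 6079 bp from that end. In the authors' table Abhd15 spans 23487 bp and so reaches into Taok1. The RefSeq body of Abhd15 is 5512 bp long and held none of the 19 peaks, whereas all 19 lay in RefSeq Taok1, 17 of them in the last 10% of the table's Taok1. The map of these peaks under the gene bodies shows the difference between the annotations.

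**Figure D5:**
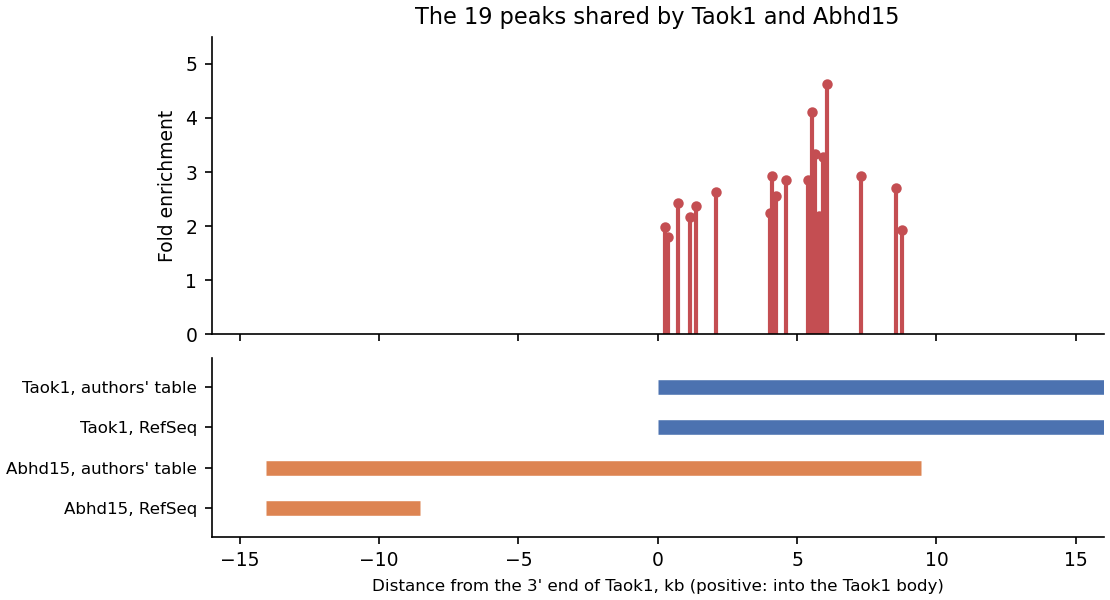
Fold enrichment of the 19 peaks shared by Abhd15 and Taok1 (upper panel) against the distance from the 3′ end of Taok1 (kb), and the bodies of both genes in the authors' table and in RefSeq (lower panel). All 19 peaks, with folds from 1.79 to 4.63, lie inside Taok1 in both annotations and outside the RefSeq body of Abhd15.

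The 37 divergent peaks fell in 25 pairs, of which 22 held 1 such peak. Rpl15, the gene of a large-subunit ribosomal protein, and Nkiras1, whose product binds inhibitors of NF-kappaB, shared 1 peak at chr14:18271221-18271316 with a RIP pileup of 27 over an input level of 5.38 and a fold of 4.39. It lay 2.66% into the table's Rpl15 and 1.25% into Nkiras1, which had 5 peaks of its own. In RefSeq the peak was inside Nkiras1 and outside Rpl15. Eny2, the gene of a subunit of the SAGA and TREX-2 complexes, and Nudcd1 shared 1 peak at chr15:44428196-44428245 with a RIP pileup of 37 over an input level of 8.49 and a fold of 4.00. It lay 1.08% into Eny2 and 0.175% into Nudcd1, and Eny2 had 6 peaks of its own. Uckl1os and Uckl1, a uridine-cytidine kinase-like gene, shared a 3-gene peak with a fold of 3.22 at a RIP pileup of 41 over an input level of 12.0. In RefSeq that peak was inside Uckl1os and outside Uckl1. Ngef, a neuronal guanine nucleotide exchange factor gene, and Neu2, a cytosolic sialidase gene, shared a 3-gene peak with a fold of 2.67 at a RIP pileup of 47 over an input level of 17.0. RefSeq Neu2 is 23819 bp long, against 87957 bp in the table, and the peak lay outside it.

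Opposite-strand nested pairs included the multi-gene peak with the largest fold, 14.1, at Rab11fip1 and the clone-named 4933416M07Rik. Patl2, whose product represses translation in oocytes and is required for their maturation, and Trim69, a RING-type ubiquitin ligase gene, shared 4 peaks in 2100 bp of chromosome 2. Their RIP pileups were 35, 42, 29 and 19 over input levels of 5.66, 9.20, 2.12 and 3.54, with folds of 5.40, 4.22, 9.61 and 4.41. The strongest lay at chr2:122172065-122172474, and all 4 were inside both genes in RefSeq too, so that annotation does not separate them either. Sh3d19, a gene for an SH3-domain adaptor, and Prss48, a serine protease gene nested in it, shared 4 peaks with RIP pileups of 23, 24, 23 and 16 over input levels of 3.54, 1.66, 4.25 and 1.70. Their folds were 5.29, 9.39, 4.57 and 6.30, and RefSeq again places all 4 in both genes. Usp2 and Rnf26, a gene for a RING ubiquitin ligase of the endoplasmic reticulum, shared 13 peaks with folds from 2.48 to 8.64 (median 4.16). The largest −log10 q of opposite-strand nested pairs without a clone name, 18.9, was among them, at chr9:44093806-44093941, where the RIP pileup of 47 stood over an input level of 6.37. Rnf26 spans 47191 bp in the table and 2271 bp in RefSeq, and all 13 peaks lay in RefSeq Usp2 and none in RefSeq Rnf26.

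Arf5, a small GTPase gene of Golgi traffic, and Gcc1, a golgin gene, shared 6 peaks with RIP pileups of 41 to 82 over input levels of 9.91 to 23.4 and folds of 2.14 to 4.03. All 6 were inside RefSeq Arf5 and none inside RefSeq Gcc1. Fgfr2, the gene of a fibroblast growth factor receptor, has a body of 2960900 bp in the table and of 104358 bp in RefSeq. It met 8 partners in 44 multi-gene peaks, among them the deubiquitinase gene Zranb1 with 16 peaks (folds 1.87 to 3.64) and the phosphatase gene Lhpp with 1 peak (fold 9.11 at a pileup of 21). None of these 17 lay in RefSeq Fgfr2, and 11 of the 16 Zranb1 peaks were in the last 10% of Zranb1. Gm20388, a model of 4434882 bp on chromosome 8, met 14 partners in 24 peaks, Gm37240 met 6 in 30, and Chd1, a chromatin remodeller gene of 1689932 bp in the table and 67646 bp in RefSeq, had 7 multi-gene peaks.

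Among same-strand pairs without a clone name that overlap end to end, the most peaks were shared by Glcci1, a glucocorticoid-induced gene, and Umad1: 12 peaks of folds from 2.08 to 6.72, all in RefSeq Glcci1 and none in RefSeq Umad1. Ints5, an Integrator subunit gene, and Lbhd1 shared 5 peaks with RIP pileups of 20, 18, 14, 20 and 29 over input levels of 5.66, 3.33, 4.03, 4.57 and 4.25. Their folds were 3.15, 4.39, 2.98, 3.77 and 5.72, and none of the 5 was inside either RefSeq body. Syce1l, named as a relative of a synaptonemal complex gene, and Mon1b, part of the exchange factor for Rab7, shared 6 peaks with folds from 2.84 to 4.66 and RIP pileups from 19 to 35. These lay between 309 and 1530 bp from the 3′ end of Mon1b and in both RefSeq bodies. Trim60 and Apela, which encodes a peptide ligand of the apelin receptor, shared 8 peaks with folds from 2.24 to 4.44. All 8 were in the last 10% of the table's Apela but outside its 8920 bp RefSeq body, and all 8 were inside RefSeq Trim60. Ppp3r1, the calcineurin B gene, and Wdr92 shared 3 peaks with RIP pileups of 25, 61 and 48 over input levels of 7.08, 18.4 and 22.6 and folds of 3.22, 3.195 and 2.07, all inside RefSeq Ppp3r1 and outside RefSeq Wdr92.

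Same-strand nested pairs included Rad54b, a recombination gene, with Fsbp, and their 2 peaks had folds of 5.48 and 5.86. Acsl3, an acyl-CoA synthetase gene, and Utp14b, a retrogene needed for spermatogenesis in mice, shared 2 peaks of folds 2.29 and 5.16. Both were in the last 10% of the table's Utp14b and in RefSeq Acsl3, but not in RefSeq Utp14b. Glb1, the beta-galactosidase gene, and Tmppe shared 6 peaks with folds of 2.67 to 5.04 and RIP pileups of 15 to 32, inside both RefSeq bodies. Camta1, a transcription factor gene, and Vamp3, a vesicle SNARE gene, shared 8 peaks with RIP pileups of 42 to 71 over input levels of 17.0 to 32.6 and folds of 1.70 to 3.46. All 8 lay in RefSeq Vamp3 and none in RefSeq Camta1, which had 21 peaks of its own in the table. Zbtb26 and Zbtb6, neighbouring zinc finger genes, shared 9 peaks with folds of 2.31 to 4.89, all in RefSeq Zbtb26 and none in RefSeq Zbtb6.

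The peaks with the most genes lay in the protocadherin alpha cluster, whose genes encode neuronal cell-surface proteins and share their last exons. Whether the peaks lie in those exons was not examined. All 6 overlapped 14 genes between 37008975 and 37010624 of chromosome 18, among them Pcdha1 to Pcdha9 and Pcdha11, with folds from 4.68 to 7.46 at pileups of 7 to 12. Another 6 peaks with 4 genes each lay at Taf7, the gene of a subunit of TFIID, within 3 long gene models of that cluster, with folds from 1.92 to 5.29. The remaining 4-gene peak lay at Raet1e and H60b, genes for ligands of the NKG2D receptor on chromosome 10, with a pileup of 26 and a fold of 7.05. It was outside the RefSeq bodies of both, and whether reads there also match another place in the genome was not examined.

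Of the 1321 genes, 928 (70.2%, 67.7 to 72.7) were overlapped by multi-gene peaks and by no other, and 508 of these have a symbol that is not clone-like. Per pair, exactly 1 partner had a peak of its own in 393 of 848 pairs (46.3%, 42.9 to 49.8), neither in 417 (49.2%) and both in 38 (4.48%). A gene nested in another cannot have a peak that misses the outer gene, so the 396 pairs that were not nested are the fairer count: 158 had own peaks in exactly 1 partner (39.9%), 200 in neither (50.5%) and 38 in both (9.60%). Convergent pairs divided into 115 with own peaks in 1 partner, 118 in neither and 28 in both. End-to-end pairs divided into 24, 75 and 6 in the same order. In 71.4% of them (61.8 to 79.8) neither partner had a peak that overlapped it and no other gene. Such partners may still have peaks shared with a further gene. These intervals treat each pair as separate, although a peak of many genes adds many pairs from 1 locus.

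In a list of 40 RNA regulators, germ cell genes and genes with strong peaks, 33 were overlapped by an autosomal peak, and 24 of their 286 peaks (8.39%) were multi-gene, near the 8.93% of all genic peaks. Elavl1, Elavl2, Elavl3, Elavl4 and the P-body helicase gene Ddx6 had 14, 13, 1, 5 and 14 peaks, none of them multi-gene. Of the list, 9 genes had a multi-gene peak, and Patl2, Ago2, Sycp3 and Tubb3 had no other kind. Ago2, the Argonaute gene of microRNA silencing, and Chrac1, which encodes a histone-fold protein, are convergent in the table and shared 3 peaks with RIP pileups of 31, 18 and 15 over input levels of 13.4, 4.95 and 4.95 and folds of 2.21, 3.19 and 2.69. None of them was inside RefSeq Ago2 or RefSeq Chrac1. Sycp3, which encodes a lateral element protein of the synaptonemal complex, lies within the table's body of Chpt1, a phospholipid synthesis gene. Their 7 peaks had RIP pileups from 25 to 82 over input levels from 6.37 to 46.0, with folds from 1.70 to 3.53, and all 7 were inside RefSeq Sycp3 while 3 were inside RefSeq Chpt1.

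Tubb3, a beta-tubulin gene typical of neurons, lies inside the clone-named model Gm20388. Its 3 peaks had RIP pileups of 15, 22 and 43 over input levels of 2.44, 6.37 and 2.83, and folds of 4.65, 3.12 and 11.5. All 3 lay in the last 10% of Tubb3. Rab11fip1, a gene of endosome recycling, shared 3 of its 7 peaks with 4933416M07Rik, with RIP pileups of 18, 13 and 30 over input levels of 1.42, 1.34 and 1.203 and folds of 7.87, 5.97 and 14.1. The last of these was 10784 bp from the 3′ end of Rab11fip1 and 114 bp from the 3′ end of 4933416M07Rik, and the best fold of the 4 peaks in Rab11fip1 alone was 3.96. The transcription factor genes Foxo1 and Maf each had 1 multi-gene peak, with folds of 5.76 and 4.88 at RIP pileups of 17 and 35. The best folds at their own peaks were 3.90 and 2.24. For the RNA-binding protein genes Celf2 and Rbfox2 the order was the other way round, with folds of 4.68 and 5.11 at the 1 multi-gene peak of each, against 11.7 and 8.78 at the best of their own. These 2 multi-gene peaks had RIP pileups of only 7 and 6 over input levels of 0.708 and 0.369, so a few tags decide their folds.

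How far the overlaps depend on the gene models could be read at the 1107 peaks of 2 genes whose symbols both have a RefSeq body. Both RefSeq bodies overlapped the peak at 641 (57.9%, 54.9 to 60.8), 1 did at 450 and none at 16. The share with both was 62.8% for convergent peaks, 60.7% for divergent, 58.8% for opposite-strand nested, 53.8% for same-strand nested and 29.2% (20.1 to 39.8) for end-to-end peaks. Using all RefSeq bodies in place of the table's, 1733 peaks overlapped at least 2 genes, and 769 peaks were in both sets, which is 42.8% of the table's set and 44.4% of the RefSeq set. Of the 1798 peaks, 1002 overlapped 1 RefSeq gene and 27 none. Multi-gene peaks made up from 1.99% of the peaks on chromosome 13 to 12.0% on chromosome 7, where 44 of the 157 overlapped the table's long body of Fgfr2. At the edge of the rule, a peak of Zkscan1 at chr5:138107109-138107187 counted although it had 0 bp in its second gene, Gm43493 (fold 2.44). The peak of Crb2 and Dennd1a counted with 2 bp in its second gene (fold 2.14). The peak of Coro1c at chr5:113842509-113842598 missed Gm17122 by 3 bp (fold 1.97).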

How the data were processed

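RNA from 1 ELAVL2 RIP sample and 1 input sample of newborn mouse ovary was analysed from the deposited peak list and gene table. Per the submitters' processing notes, the tools were TopHat2 2.0.8b, MACS2 2.1.0.20140616, FastQC 0.11.2 and CASAVA 1.8.2, and the build was mm10. Per the file headers, 3 RIP lanes and 3 input lanes were pooled, tags of 36 bases were extended to 50 bp, 1 tag was kept per position and strand, and the q cutoff was 0.05. The signal the authors deposited is the peak's RIP pileup (tags overlapping the summit), per the file headers. The fold enrichment deposited by the authors is a ratio of pileup to scaled local input after 1 is added to each, so it understates weakly covered peaks. The −log10 p and −log10 q were deposited by the authors and served only to rank and filter peaks. The caller takes no account of strand, splicing or transcript abundance. No source used here says how the authors made the gene table. Of its 85730 rows, 42176 repeated another row.

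Layouts were computed from the table's gene starts, ends and strands, and recovered in full on simulated pairs. Shares have exact Clopper-Pearson intervals, densities exact Poisson intervals and the median an interval from its order statistics, all at 95%. RefSeq GRCm38.p6 gave gene types, bodies and sequences; exons and introns were not used here. The work used matplotlib 3.10.9, scipy 1.17.1, pandas 2.3.3 and numpy 2.4.6 under Python 3.11.15. The members and lists were chosen with earlier results of these data known. Named pairs, both with symbols that are not clone names, were in each layout the 2 that shared the most peaks, the 3 with the top −log10 q and the 4 with the top fold among peaks of pileup 20 or more, besides the peaks with the most genes and the 40-gene list. Rab7, Bri3, Klf7 and Nupl1 were named for their printed sequences, and the longest gene models after their values were seen.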

Additional observations from a re-analysis of the deposited data

How the results depend on the processing

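Of 82 values recomputed under the alternatives, 46 stayed inside the 95% interval of the reported value and 36 moved outside it. A −log10 q of at least 2 gave a share with a fold of at least 5 of 17.1% and a median fold of 3.18. A pileup of at least 20 gave multi-gene peaks 8.50% of autosomal peaks, an opposite-strand share of 73.7%, a convergent share of those of 61.6%, a nested share of 38.3%, a share with a fold of at least 5 of 5.24%, a median fold of 2.61, a last-10% share of 70.1% and a share of pairs with own peaks in exactly 1 partner of 42.4%. Without bodies over 1 Mb the multi-gene share was 6.34%, the convergent share 59.1% and the nested share 39.1%. With RefSeq bodies the opposite-strand share was 79.7%, the convergent share 60.3%, the share with a fold of at least 5 was 20.2%, the median fold 3.19 and the last-10% share 51.5%. Many RefSeq genes have no known strand here. The opposite-strand share was therefore taken over 1431 of the 1733 peaks and the last-10% share over 1723. With genes of an approved, not clone-like symbol the multi-gene share was 2.82%, the opposite-strand share 76.8%, the convergent share 68.2%, the nested share 34.6%, the share with a fold of at least 5 was 10.5% (18.8% at 1-gene peaks), the median fold 2.84 and the last-10% share 70.0%. With 1 peak per set of genes these were 2.72% multi-gene, 49.5% convergent, 46.9% nested, 24.8% with a fold of at least 5, a median fold of 3.45 and a last-10% share of 57.9%. With peaks within 100 bp merged, 17.4% had a fold of at least 5, the median fold was 3.13 and the last-10% share 59.5%. No 1-gene share was taken with merged peaks or at a −log10 q of at least 2. Without the pseudocount 26.0% had a fold of at least 5 and the median was 3.23. Apart from fewer peaks or genes counted, the cause was not tested. No paired analysis was possible because each group holds 1 sample, for which reason no replicate could be left out either. Depth limits weak peaks: at a low pileup a few tags decide fold and summit.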
